A study of Mus musculus with 12 samples.

Results

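The 10 genes described here encode integrin chains: the alpha chains Itgal, Itgam, Itgax, Itga4, Itga5, Itga6 and Itgav, and the beta chains Itgb1, Itgb2 and Itgb7. They were chosen by symbol, and each of the 10 was found among the 54532 genes of the count table and had enough counts to be among the 14506 genes tested. Resident peritoneal macrophages, the macrophages that live in the fluid of the abdominal cavity, came from C57BL/6 mice and were kept for 24 h in DMEM. RNA-seq covered 12 libraries in 4 groups of 3: MOPS medium with LPS at 10 ng/ml for 2 h, HEPES medium with the same LPS dose and time, untreated cells in MOPS medium, and untreated cells in HEPES medium. LPS is the bacterial cell-wall component sensed by Toll-like receptor 4. The design text names pH 6.8 and then pH 7.4, and MOPS and then HEPES, so pairing MOPS with pH 6.8 and HEPES with pH 7.4 rests on word order. Buffer and pH change together, and a comparison of media is of the medium as a whole. The labels used here give neither age nor sex of the mice.

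Integrins are receptors of 1 alpha and 1 beta chain that tie a cell to matrix proteins and to other cells. They stand mostly in a low-affinity form until talin and kindlins bind the beta-chain tail downstream of the small GTPase Rap1, and once bound to ligand they signal through Src-family kinases, Syk and the adhesion complex. In macrophages the beta2 integrins serve complement-dependent uptake and adhesion to ICAMs, while the beta1 and alphav integrins bind fibronectin, laminins and vitronectin.

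The 3 genes below had large LPS changes (Itga5, Itgav) or a different LPS change in each medium (Itga4), and their promoter windows are shown for that reason. Each is 300 bases of RefSeq sequence on build GRCm38.p6, from 250 bases before the gene's start to 50 after it, read 5′ to 3′ on the gene's strand. Itga5 is at chr15:103366742-103367041 on the minus strand, Itgav at chr2:83724147-83724446 on the plus strand and Itga4 at chr2:79255176-79255475 on the plus strand. Capitals mark the letters GGGCGG (the GC box) and GAGGAA (a core of PU.1 and related ETS factors), or their reverse complements CCGCCC and TTCCTC.
Itga5: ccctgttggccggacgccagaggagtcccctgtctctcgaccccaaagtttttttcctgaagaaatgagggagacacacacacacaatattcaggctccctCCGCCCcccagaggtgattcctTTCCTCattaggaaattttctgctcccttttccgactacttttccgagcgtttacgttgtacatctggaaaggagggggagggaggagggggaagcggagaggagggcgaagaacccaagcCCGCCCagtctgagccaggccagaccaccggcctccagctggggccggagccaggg
Itgav: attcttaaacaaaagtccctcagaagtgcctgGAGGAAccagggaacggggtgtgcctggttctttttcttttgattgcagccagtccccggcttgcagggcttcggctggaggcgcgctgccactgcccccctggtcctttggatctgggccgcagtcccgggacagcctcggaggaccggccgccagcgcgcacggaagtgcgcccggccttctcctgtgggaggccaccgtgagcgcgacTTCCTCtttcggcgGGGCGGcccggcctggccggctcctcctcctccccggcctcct
Itga4: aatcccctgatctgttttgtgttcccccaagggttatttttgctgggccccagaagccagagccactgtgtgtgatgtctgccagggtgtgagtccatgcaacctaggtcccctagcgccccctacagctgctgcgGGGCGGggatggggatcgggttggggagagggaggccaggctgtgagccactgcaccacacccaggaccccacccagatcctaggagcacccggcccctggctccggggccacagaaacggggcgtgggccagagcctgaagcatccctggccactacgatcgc
Among 32851 windows of this length, 35.7% held GGGCGG and 28.3% held GAGGAA on either strand. The Itga5 window held 2 GGGCGG matches and 1 GAGGAA match. The Itgav window held 1 GGGCGG match and 2 GAGGAA matches, and the Itga4 window held 1 GGGCGG match and no GAGGAA match. Windows were found for 7 of the 10 genes. For NF-kappaB, only 1 strict form of the pattern was searched, a run of 10 letters present in 1.63% of windows, and none of the 7 held it. Looser forms of the NF-kappaB pattern were not searched, so their absence from these windows is not shown. TGANTCA, the AP-1 pattern, was present in 7.81% of windows and once in that of Itgax. A match is a run of letters and was not tested as a binding site. Itgal, Itga6 and Itgb2 had no entry in the promoter table.

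The annotation on build mm10 places the genes for the 3 leukocyte alpha chains near each other on chromosome 7, all on the plus strand. Itgal (ENSMUSG00000030830) spans chr7:127296260-127335138, Itgam (ENSMUSG00000030786) chr7:128062640-128118491 and Itgax (ENSMUSG00000030789) chr7:128129547-128150657. Chromosome 2 holds 3 more, on the plus strand: Itga6 (ENSMUSG00000027111) at chr2:71745616-71858416, Itga4 (ENSMUSG00000027009) at chr2:79255426-79333123 and Itgav (ENSMUSG00000027087) at chr2:83724397-83806916. On chromosome 15, Itgb7 (ENSMUSG00000001281) spans chr15:102215995-102231944 and Itga5 (ENSMUSG00000000555) chr15:103344286-103366763, both on the minus strand. Itgb1 (ENSMUSG00000025809) lies at chr8:128685654-128733200 and Itgb2 (ENSMUSG00000000290) at chr10:77530252-77565708, both on the plus strand. Counts are per gene, so splice forms of Itga6 and the others cannot be told apart here. No overlapping gene held more than 0.235% of an integrin gene's count.

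Library totals were 21210474 to 24521749 counts in MOPS with LPS, 22447187 to 23506654 in HEPES with LPS, 20114613 to 24734853 in MOPS and 22433773 to 24669239 in HEPES. Levels are CPM, counts scaled to a common library size with the TMM factors of edgeR, and levels compared between genes are CPM per kilobase of gene length. Tests are edgeR quasi-likelihood tests over all 12 libraries with Benjamini-Hochberg adjustment over all 14506 genes, called at an adjusted p under 0.05. A log2 change is printed with its approximate standard error. The labels do not say whether the 3 libraries of a group came from separate animals or cultures, so the p-values reflect how far these libraries vary, which may be technical. The spread of each gene was moderated across genes, so its p-values also draw on the spread of other genes. The choice of scaling matters for LPS comparisons: scaling by total counts alone moved the median log2 change of all genes by -0.51 for LPS in MOPS and by -0.58 for LPS in HEPES. The share of called genes that were higher with LPS was then 17.98% instead of 49.4% in MOPS and 20.6% instead of 46.3% in HEPES. Members whose direction turned under that scaling are named where they are described. The cells carried macrophage markers in every group: Adgre1, which encodes F4/80, averaged 983 CPM in MOPS with LPS, 977 in HEPES with LPS, 836 in MOPS and 875 in HEPES, and none of the 8 macrophage markers was at 0. Together these 8 summed to 20150.5 to 22990.3 CPM in MOPS with LPS, 32392 to 34065 in HEPES with LPS, 15867 to 16086 in MOPS and 24689 to 26045 in HEPES. Lyz2 had the most counts of the 8, 4979214 over all libraries, followed by Cd14 with 757476. Single markers went both ways between the media. Without LPS, 4 were higher and 2 lower in MOPS (median log2 difference 0.02), where 49.7% of all genes were called. With LPS, 2 were higher and 4 lower in MOPS (median -0.26), where 53.8% were called.

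Without LPS the macrophages carried mostly beta2 and beta1 chain transcripts, followed by the alpha6 laminin receptor chain and alphaM. With LPS the alpha5 fibronectin receptor chain ranked next after these beta chains in both media. Itgb2, the beta chain shared by the leukocyte integrins, averaged 573 ± 18.2 CPM per kilobase in MOPS with LPS, 567 ± 29.2 in HEPES with LPS, 432 ± 12.2 in MOPS and 462 ± 10.9 in HEPES (SD, n = 3 each). Itgb1, the beta chain of most matrix-binding integrins, came second in each group at 357 ± 6.07, 349 ± 9.07, 242 ± 2.94 and 273 ± 4.595 CPM per kilobase in the same order of groups. Both beta chains stood clear of the genes next to them in each of the 4 groups. Next came Itga5 at 230.3 ± 10.0 CPM per kilobase in MOPS cells given LPS and 255 ± 6.78 in HEPES cells given LPS, and Itga6 at 73.1 ± 2.73 in MOPS and 70.4 ± 1.52 in HEPES.

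The middle of the order was close. In MOPS with LPS, Itgav (48.7 ± 3.04 CPM per kilobase) overlapped both Itgam (51.9 ± 3.16) and Itga6 (47.6 ± 1.797). Itgam and Itga6 did not overlap each other, and Itgax followed at 36.7 ± 1.91. In HEPES with LPS, Itgam (54.1 ± 2.02 CPM per kilobase) and Itgav (53.4 ± 0.800) overlapped, ahead of Itgax at 45.8 ± 6.16 and Itga6 at 27.5 ± 0.718. In untreated cells of both media Itgam and then Itgax followed Itga6, with no overlap between them. In untreated MOPS cells, Itga5 came after Itgax and the next pair, Itgav and Itga4, overlapped. In untreated HEPES cells the order of those 3 was Itga4, Itga5 and Itgav, with no overlap. Itgal and Itgb7 closed the order in untreated cells at 2.04 ± 0.228 and 2.48 ± 0.414 CPM per kilobase in MOPS and 2.82 ± 0.139 and 3.11 ± 0.369 in HEPES, where their libraries overlapped. With LPS, Itgb7 was last at 2.38 ± 0.223 CPM per kilobase in MOPS and 1.81 ± 0.106 in HEPES, and Itgal stood at 22.0 ± 0.961 in MOPS and 24.2 ± 0.909 in HEPES.

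**Figure D1:**
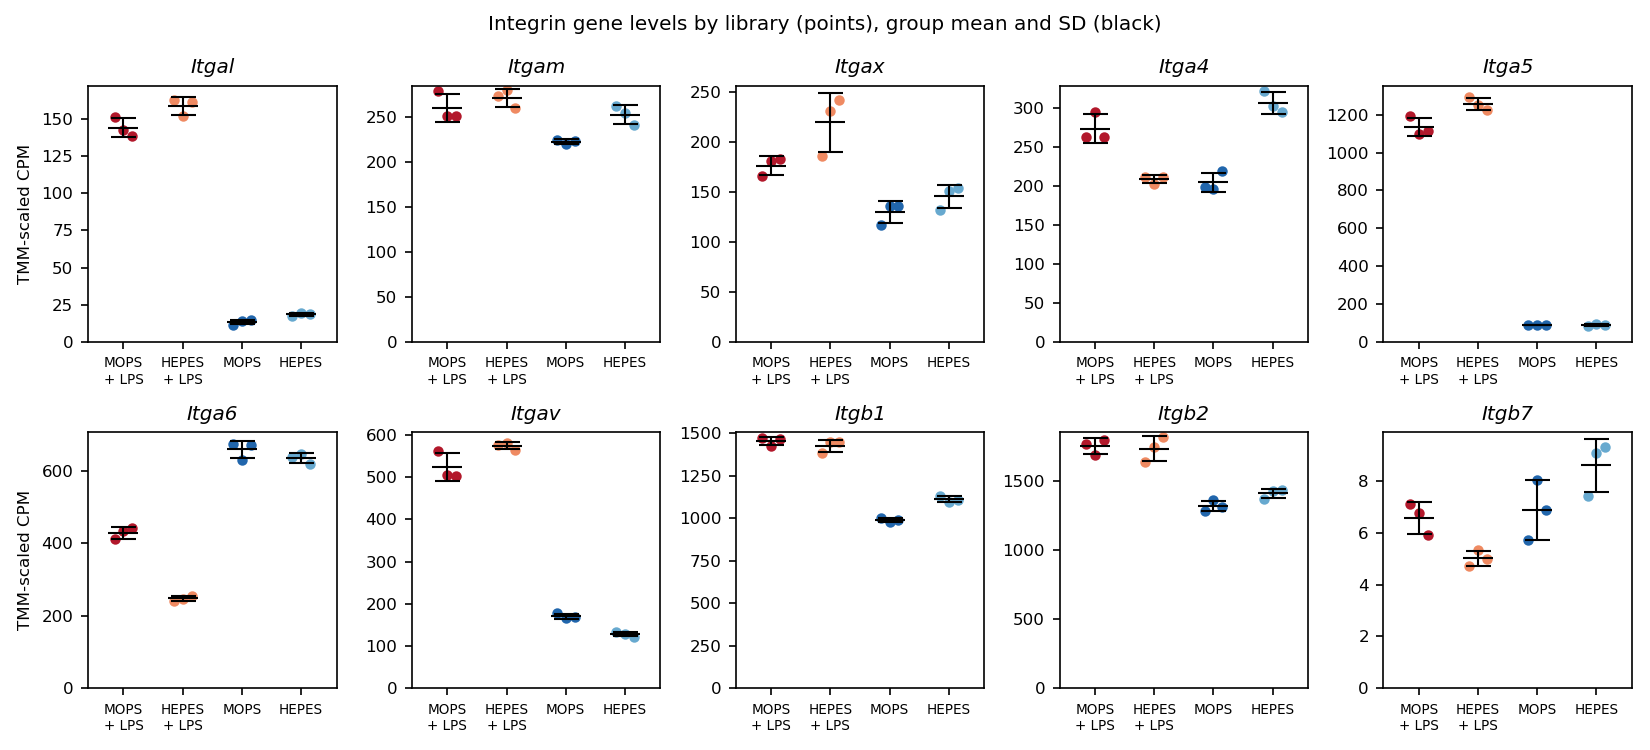
TMM-scaled CPM (y axis, from 0) of each of the 10 integrin genes in the 12 libraries (points), by group on the x axis, with the group mean and SD in black. Itga5, Itgal and Itgav stand higher with LPS in both media, Itga6 stands lower with LPS, and Itga4 is lowest in HEPES with LPS and in untreated MOPS cells.

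LPS for 2 h raised Itga5, Itgal and Itgav and lowered Itga6 in both media, with TMM scaling and with total counts alike. Itga4 fell with LPS in HEPES and, with TMM scaling but not with total counts, rose with LPS in MOPS. In MOPS, 9 of 10 integrin genes were called, 8 higher and 1 lower, where 69% of all genes tested were called (34.1% higher and 34.9% lower). In HEPES all 10 were called, 7 higher and 3 lower, where 76.9% of all genes were called (35.6% higher and 41.2% lower). With total counts the split was 3 higher and 4 lower in MOPS and 3 higher and 6 lower in HEPES. With a further minimum of 2-fold, 3 members were higher and none lower in MOPS, where 22.5% of all genes passed in either direction (10.8% higher and 11.8% lower). In HEPES 3 were higher and 1 lower, where 33.6% of all genes passed (13.9% higher and 19.7% lower). Libraries did not overlap between LPS and untreated cells for 9 members in each medium, against 71.8% of all genes in MOPS and 78.4% in HEPES. The median log2 change of the members was 0.43 in MOPS and 0.33 in HEPES, against -0.03 and -0.08 over all genes tested. In bulk RNA, a change in transcript level per cell and a change in how many cells carry the transcript cannot be told apart.

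Itga5 encodes the alpha chain that pairs with beta1 to form the main fibronectin receptor. Its levels were 1192, 1100.3 and 1115 CPM in MOPS with LPS, against 90.1, 89.9 and 90.7 CPM in untreated MOPS cells. In HEPES they were 1292, 1254 and 1225 CPM with LPS, against 84.9, 93.8 and 87.6 CPM untreated. Every LPS library was more than 10 times above every untreated library. The rise was 12.6-fold in MOPS (log2 change 3.65 ± 0.044, edgeR adjusted p = 9.99e-34) and 14.2-fold in HEPES (3.82 ± 0.044, adjusted p = 2.52e-34).

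Itgav encodes the alphav chain, which pairs with several beta chains, binds vitronectin and fibronectin and takes part in activating latent TGF-beta. It stood at 561, 505 and 503 CPM in MOPS with LPS, against 177, 166 and 169 CPM untreated. HEPES cells had 575, 582 and 565 CPM with LPS, against 133, 129 and 122 CPM untreated. The groups were far apart in both media. The rise was 3.07-fold in MOPS (log2 change 1.62 ± 0.043, edgeR adjusted p = 7.12e-25) and 4.48-fold in HEPES (2.16 ± 0.044, adjusted p = 3.36e-28). With total counts the log2 change was 1.10 in MOPS and 1.58 in HEPES.

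Itga6, whose chain forms a laminin receptor with beta1 or beta4, moved the other way. It stood at 412, 435 and 443 CPM in MOPS with LPS, against 676, 631 and 672 CPM untreated. In HEPES it stood at 242, 248 and 255 CPM with LPS, against 639, 647 and 621 CPM untreated. No LPS library reached an untreated one, and the HEPES libraries with LPS were the lowest of all. The log2 change was -0.62 ± 0.038 in MOPS (1.53-fold lower, edgeR adjusted p = 3.15e-15) and -1.36 ± 0.039 in HEPES (2.56-fold lower, adjusted p = 3.93e-24).

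Itga4 encodes the alpha4 chain, which binds VCAM-1 and fibronectin with beta1 and MAdCAM-1 with beta7. Its levels were 263, 295 and 263 CPM in MOPS with LPS, against 199, 196 and 219 CPM untreated. In HEPES they were 212, 203 and 212 CPM with LPS, against 322, 302 and 295 CPM untreated. The groups did not overlap in either medium, with LPS above untreated in MOPS and below it in HEPES. The log2 change was 0.42 ± 0.047 in MOPS (edgeR adjusted p = 7.40e-09) and -0.55 ± 0.048 in HEPES (adjusted p = 1.71e-11). Scaled by total counts, the change in MOPS was -0.09 with an adjusted p of 0.0888, so the rise in MOPS depends on the scaling while the fall in HEPES does not.

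Itgal encodes alphaL, the CD11a chain of LFA-1, which binds ICAM-1 and ICAM-2. Its levels were 151, 143 and 139 CPM in MOPS with LPS, against 11.7, 13.98 and 14.5 CPM untreated. In HEPES they were 163, 152 and 161 CPM with LPS, against 17.5, 19.3 and 18.8 CPM untreated. Every LPS library was several times above every untreated one. The rise was 10.8-fold in MOPS (log2 change 3.43 ± 0.061, edgeR adjusted p = 2.96e-29) and 8.58-fold in HEPES (3.10 ± 0.058, adjusted p = 6.15e-29). Lymphocytes also carry Itgal. The 10 T and NK cell markers summed to 0.882 to 1.66 CPM in MOPS with LPS, 1.33 to 2.17 in HEPES with LPS, 1.14 to 1.58 in MOPS and 1.49 to 2.06 in HEPES, below Itgal in each group, with Ncr1 at 0 in all 12 libraries. The 10 B cell markers, none at 0, summed to 130 to 143 CPM in MOPS with LPS, 35.8 to 42.7 in HEPES with LPS, 220 to 229 in MOPS and 111 to 186 in HEPES, and so were lower with LPS, while Itgal was higher. The part of either cell type in the Itgal change was not tested.

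Itgam and Itgax encode the alpha chains CD11b and CD11c of the complement receptors formed with beta2. Itgam averaged 261 ± 15.9 CPM in MOPS with LPS, 272 ± 10.2 in HEPES with LPS, 223 ± 2.77 in MOPS and 253 ± 10.8 in HEPES (SD, n = 3 each). With LPS it was higher by 0.23 ± 0.043 on the log2 scale in MOPS (edgeR adjusted p = 2.65e-05), where the libraries did not overlap, and by 0.10 ± 0.043 in HEPES (adjusted p = 0.0311), where they did. The HEPES call was lost without the low-count filter (adjusted p = 0.449), without HEPES library 5 (0.0504) and without HEPES library 6 (0.179). Itgax averaged 176 ± 9.17 CPM in MOPS with LPS, 219.8 ± 29.6 in HEPES with LPS, 129.6 ± 11.1 in MOPS and 146 ± 11.8 in HEPES. Its LPS libraries lay above the untreated ones in both media, with a log2 change of 0.44 ± 0.11 in MOPS (edgeR adjusted p = 0.00534) and 0.59 ± 0.11 in HEPES (adjusted p = 7.36e-04). Scaled by total counts, Itgam was lower with LPS in both media, and the Itgax change was -0.07 in MOPS and 0.0097 in HEPES, neither called. Dendritic cells and small peritoneal macrophages also carry Itgax. Their 9 markers summed to 76.8 to 84.5 CPM in MOPS with LPS, 105 to 119 in HEPES with LPS, 68.9 to 72.7 in MOPS and 59.3 to 61.2 in HEPES, with 1 marker at 0 in HEPES with LPS. These sums were higher with LPS, as Itgax was, but single markers went both ways: of 8 tested, 3 were higher and 4 lower with LPS in MOPS (median log2 change -0.47) and 3 higher and 3 lower in HEPES (median -0.37). Over all genes 69% were called in MOPS and 76.9% in HEPES, with medians of -0.03 and -0.08. The part of these cells in the Itgax change was not tested.

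Among the beta chains, Itgb1 averaged 1455 ± 24.8 CPM in MOPS with LPS, 1425 ± 37.0 in HEPES with LPS, 989 ± 12.01 in MOPS and 1113 ± 18.8 in HEPES (SD, n = 3 each). It was higher with LPS by 0.56 ± 0.035 on the log2 scale in MOPS (edgeR adjusted p = 3.15e-15) and by 0.36 ± 0.035 in HEPES (adjusted p = 7.81e-11), with no overlap of libraries. Itgb2 averaged 1749.7 ± 55.4 CPM in MOPS with LPS, 1732 ± 89.1 in HEPES with LPS, 1318 ± 37.4 in MOPS and 1409 ± 33.4 in HEPES. Its log2 change was 0.41 ± 0.039 in MOPS (edgeR adjusted p = 9.01e-11) and 0.30 ± 0.039 in HEPES (adjusted p = 4.54e-08), again with no overlap. Both directions depend on the scaling: with total counts Itgb1 changed by 0.04 in MOPS, uncalled, and by -0.23 in HEPES, and Itgb2 by -0.10 in MOPS and -0.29 in HEPES. Itgb7, the partner of alpha4 and alphaE on lymphocytes, was scarce, with 87 to 260 counts per library. It averaged 6.59 ± 0.618 CPM in MOPS with LPS, 5.02 ± 0.293 in HEPES with LPS, 6.88 ± 1.15 in MOPS and 8.60 ± 1.02 in HEPES. The HEPES libraries with LPS lay below the untreated ones (log2 change -0.77 ± 0.13, edgeR adjusted p = 5.50e-06), while in MOPS they overlapped (-0.07 ± 0.13, adjusted p = 0.662). With total counts the MOPS change of Itgb7 was -0.58 and was called (adjusted p = 1.82e-04). The B cell marker sums given above were also lowest in HEPES with LPS, and their part in Itgb7 and Itga4 was not tested.

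**Figure D2:**
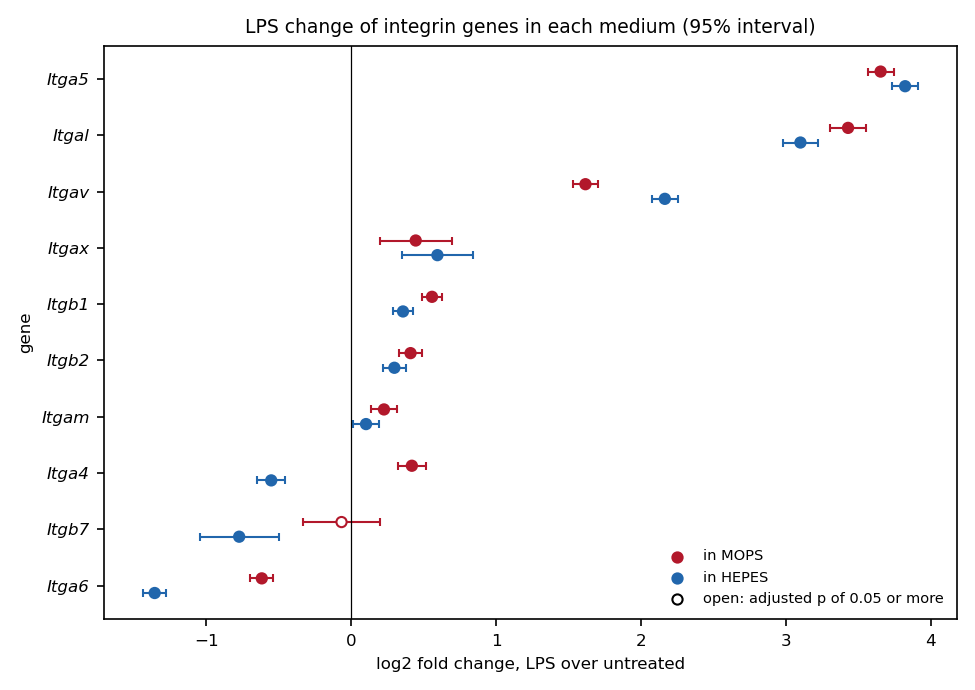
Log2 fold change of LPS over untreated cells (x axis) for each integrin gene (y axis), in MOPS (red) and HEPES (blue), with 95% intervals; open points had an adjusted p of 0.05 or more. Itga5, Itgal and Itgav lie to the right of the other genes in both media, Itga4 lies on opposite sides of 0 in MOPS and HEPES, and Itgb7 in MOPS is the open point.

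The LPS change itself differed between the media for 7 of 10 integrin genes, 5 with a higher and 2 with a lower change in MOPS, where 39.4% of all genes passed the interaction test (21.9% higher and 17.6% lower). Itga4 had the largest difference in size among the 10 (0.97 ± 0.067 on the log2 scale, edgeR adjusted p = 3.85e-12), its changes being 0.42 in MOPS and -0.55 in HEPES. Itga6 fell less in MOPS, with a difference of 0.74 ± 0.054 (adjusted p = 3.85e-12). Itgav rose less in MOPS, with a difference of -0.55 ± 0.060 (adjusted p = 1.19e-08). Itgb7 differed by 0.71 ± 0.19 (adjusted p = 0.00310). The remaining calls were smaller: Itgal by 0.33 ± 0.086 (adjusted p = 0.00261), Itgb1 by 0.20 ± 0.049 (0.00137) and Itga5 by -0.17 ± 0.058 (0.0195). The Itga5 call was lost when counts were scaled by totals (adjusted p = 0.154) and without HEPES library 4 (0.0678). For Itgam (0.12, 95% interval 0.00060 to 0.25), Itgb2 (0.11, -0.0011 to 0.22) and Itgax (-0.15, -0.50 to 0.20) no difference was called, and the intervals do not show equal responses. A difference was called for Itgam with total counts (adjusted p = 0.00718), for Itgb2 with total counts (0.00609) and without the low-count filter (0.0436), and for Itgax without HEPES with LPS library 10 (0.0327). None of the differences reached 2-fold, which 5.6% of all genes did. Over all genes, the higher share among interaction calls was 55.5% with TMM and 66.4% with total counts, where 7 members were higher and 1 lower.

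Without LPS, MOPS medium lowered 6 integrin genes and raised 1 relative to HEPES, all by less than 2-fold. The 7 of 10 called compare with 49.7% of all genes tested (24.3% higher and 25.4% lower), and 8.11% of all genes passed with at least 2-fold. Libraries did not overlap for 6 members, against 57.6% of all genes. Itga4 was lower in MOPS by a log2 difference of -0.58 ± 0.047 (edgeR adjusted p = 2.27e-11): its 3 MOPS libraries were at 196 to 219 CPM, against 295 to 322 CPM in HEPES. Itgal was lower by -0.47 ± 0.070 (adjusted p = 1.62e-06), at 11.7 to 14.5 CPM in MOPS and 17.5 to 19.3 CPM in HEPES. Itgav was the gene that was higher, by 0.42 ± 0.043 (adjusted p = 1.80e-09), at 166 to 177 CPM in MOPS and 122 to 133 CPM in HEPES. Itgam (-0.18 ± 0.042, adjusted p = 5.49e-04) and Itgb1 (-0.17 ± 0.034, adjusted p = 1.20e-04) were lower in MOPS without overlap. Itgb2 (-0.10 ± 0.039, adjusted p = 0.0393) and Itgb7 (-0.31 ± 0.12, adjusted p = 0.0317) were called lower near the threshold. The Itgb2 call was lost with DESeq2's size factors (adjusted p = 0.129), with total counts (0.0934), with DESeq2 (0.144) and without MOPS library 1 or 3, HEPES library 5 or 6 or HEPES with LPS library 11 (0.0566 to 0.158). The Itgb7 call was lost with DESeq2 (0.0802) and without MOPS library 1 or 3 or HEPES library 5 or 6 (0.0698 to 0.214). Itga5 (0.02, 95% interval -0.06 to 0.11), Itga6 (0.05, -0.02 to 0.13) and Itgax (-0.17, -0.41 to 0.08) were not called. B cell marker sums, at 220 to 229 CPM in MOPS and 111 to 186 CPM in HEPES, were higher in MOPS, while Itga4, Itgal and Itgb7 were lower. Of the 10 B cell markers, 6 were called higher and 1 lower in MOPS, against 24.3% and 25.4% of all genes. The part of B cells in these differences was not tested.

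With LPS in both media, MOPS cells had more Itga6 and Itga4 than HEPES cells. Itgax, Itga5, Itgal and Itgav were called slightly lower in MOPS with TMM scaling but not with total counts. Of the 10 genes, 7 were called, 3 higher and 4 lower, where 53.8% of all genes were called (26.9% higher and 26.9% lower). None reached 2-fold, which 10.5% of all genes did, and 7 had libraries without overlap, against 58.8% of all genes. Itga6 was higher in MOPS by 0.79 ± 0.039 on the log2 scale (edgeR adjusted p = 4.21e-17), at 412 to 443 CPM in MOPS with LPS and 242 to 255 CPM in HEPES with LPS. Itga4 was higher by 0.39 ± 0.048 (adjusted p = 6.69e-08), at 263 to 295 CPM in MOPS with LPS and 203 to 212 CPM in HEPES with LPS. Both calls held in every alternative run except the 2-fold minimum, which neither reached. Itgb7 was higher by 0.39 ± 0.14 (adjusted p = 0.0216), a call lost without MOPS with LPS library 7 or 8 or HEPES with LPS library 10 or 12 (0.0805 to 0.128). B cell marker sums were also higher in MOPS with LPS than in HEPES with LPS. Of the 10 B cell markers, 9 were called higher and 1 lower, against 26.9% of all genes each way. The part of B cells in the Itga4 and Itgb7 differences was not tested.

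The 4 lower calls with LPS were small and depended on the scaling. They were Itgax (-0.32 ± 0.11, edgeR adjusted p = 0.0350), Itga5 (-0.15 ± 0.039, adjusted p = 0.00197), Itgal (-0.14 ± 0.049, adjusted p = 0.0197) and Itgav (-0.13 ± 0.042, adjusted p = 0.00771). With total counts all 4 calls were lost (adjusted p of 0.124, 0.221, 0.464 and 0.408 in that order), and the members then counted 5 higher and 0 lower. Over all genes, that scaling gave 62.4% higher calls instead of 50.04%. Itgal and Itgav also lost the call without MOPS with LPS library 9 (0.0950 and 0.0559). Itgax lost it without the low-count filter (0.0876), with only the groups compared (0.0582) and without MOPS with LPS library 7 or 9 or HEPES with LPS library 11 or 12 (0.0580 to 0.0676). Itgb1 (0.03, 95% interval -0.04 to 0.10), Itgb2 (0.01, -0.07 to 0.09) and Itgam (-0.06, -0.15 to 0.03) were not called. With total counts Itgb1 (0.12, adjusted p = 0.00238) and Itgb2 (0.11, adjusted p = 0.0163) were called higher in MOPS. Itgam was called lower without MOPS with LPS library 7 (-0.16, adjusted p = 0.00324) and without HEPES with LPS library 12 (-0.13, adjusted p = 0.0198). The Itgam difference was called without MOPS with LPS library 7 (-0.16, adjusted p = 0.00324) and without HEPES with LPS library 12 (-0.13, adjusted p = 0.0198). The comparisons of media and of LPS share groups, so their values are given side by side and are not independent of each other.

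**Figure D3:**
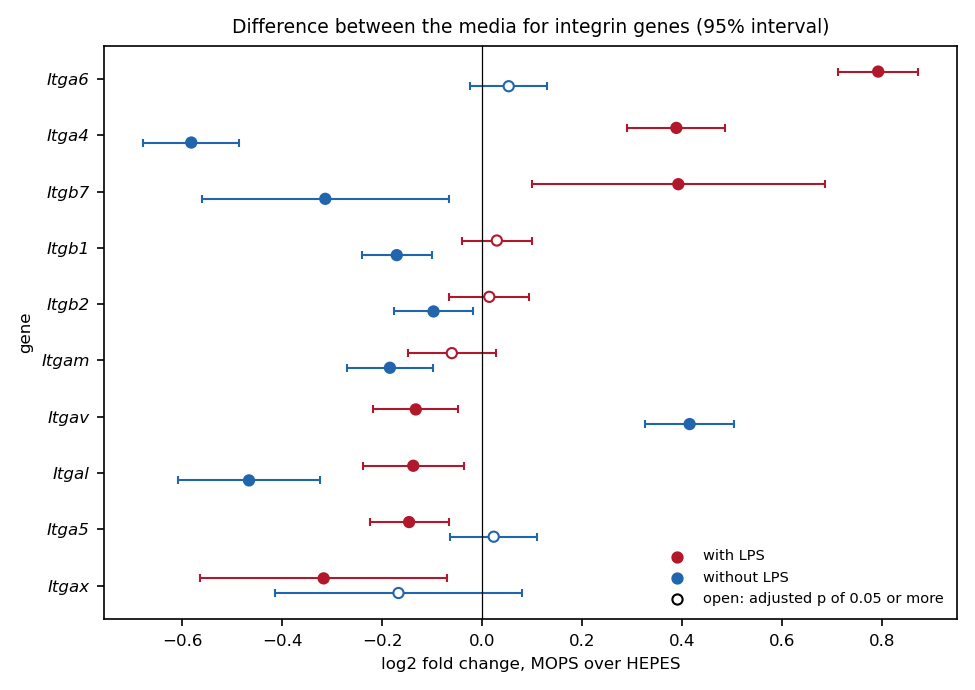
Log2 fold change of MOPS over HEPES (x axis) for each integrin gene (y axis), with LPS (red) and without LPS (blue), with 95% intervals; open points had an adjusted p of 0.05 or more. Itga4, Itgb7 and Itgav have called differences on opposite sides of 0 with and without LPS. Both Itgb7 calls and the Itgav call with LPS were lost in some alternative runs.

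Shares within the alpha or the beta chains do not depend on how libraries are scaled. Of the summed level per kilobase of all 18 alpha chain genes in the table, Itga5 made up 49.6 ± 0.814% in MOPS with LPS, 52.5 ± 1.21% in HEPES with LPS, 9.11 ± 0.135% in MOPS and 8.46 ± 0.355% in HEPES (SD, n = 3 each). Itga6 made up 10.3 ± 0.651%, 5.67 ± 0.177%, 36.4 ± 0.904% and 33.1 ± 0.156% in the same order of groups. Untreated cells thus had Itga6 ahead of Itga5, and LPS-treated cells had Itga5 ahead of Itga6. The ratio of Itga5 to Itga6 per kilobase was 4.84 ± 0.394 in MOPS with LPS, 9.28 ± 0.488 in HEPES with LPS, 0.250 ± 0.00892 in MOPS and 0.256 ± 0.0111 in HEPES. The 3 libraries of MOPS with LPS were at 4.61 to 5.30 and those of HEPES with LPS at 8.80 to 9.77, without overlap, while the untreated media overlapped.

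Of the same alpha chain sum, Itgam held 11.2 ± 0.370% in MOPS with LPS, 11.2 ± 0.348% in HEPES with LPS, 22.1 ± 0.314% in MOPS and 23.7 ± 0.800% in HEPES. Itgal held 4.73 ± 0.0961%, 4.98 ± 0.207%, 1.01 ± 0.112% and 1.33 ± 0.0650% in that order. The level of Itgam relative to Itgal, both partners of beta2, was 2.36 ± 0.0533 in MOPS with LPS, 2.24 ± 0.158 in HEPES with LPS, 22.0 ± 2.82 in MOPS and 17.9 ± 1.52 in HEPES. Itga4 held 4.22 ± 0.363%, 3.08 ± 0.0916%, 7.30 ± 0.317% and 10.3 ± 0.443%, and so its share was lower with LPS in both media. The TMM-scaled alpha chain sum averaged 464, 485, 201 and 213 CPM per kilobase in that order. A lower share with LPS therefore need not be a lower level. With TMM scaling, Itga4 in MOPS was called higher with LPS, while with total counts its change was -0.09 and uncalled. In HEPES both the share and the level of Itga4 were lower with LPS. Itgav held 10.5 ± 0.365%, 11.01 ± 0.0974%, 7.91 ± 0.274% and 5.60 ± 0.176%. Itgax held 7.92 ± 0.616%, 9.44 ± 1.30%, 13.4 ± 1.17% and 14.3 ± 1.24%.

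Among the beta chains, the Itgb2 and Itgb1 shares moved little between groups and the minor chains moved more. Itgb2 held 59.0 ± 0.454% of the summed level of the 9 beta chain genes in MOPS with LPS, 60.1 ± 0.656% in HEPES with LPS, 60.6 ± 0.991% in MOPS and 59.8 ± 0.846% in HEPES. Itgb1 held 36.7 ± 0.383%, 37.0 ± 0.693%, 34.0 ± 0.858% and 35.3 ± 0.922% in the same order. Itgb5 held 4.04 ± 0.0412%, 2.63 ± 0.123%, 4.93 ± 0.509% and 4.10 ± 0.0488%, and Itgb7 held 0.245 ± 0.0258%, 0.192 ± 0.00883%, 0.348 ± 0.0538% and 0.402 ± 0.0441%. Itgb3 held 0.0351 ± 0.00586%, 0.0897 ± 0.0136%, 0.0899 ± 0.0122% and 0.306 ± 0.0147%, and Itgb8 held 0.0585 ± 0.00646%, 0.0435 ± 0.0100%, 0.0193 ± 0.00340% and 0.0103 ± 0.00204%. The summed alpha chain level per unit of beta chain level was 0.478 ± 0.0137 in MOPS with LPS, 0.514 ± 0.0233 in HEPES with LPS, 0.282 ± 0.00889 in MOPS and 0.276 ± 0.00622 in HEPES. These are transcript ratios and do not give the amounts of paired receptor at the cell surface.

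**Figure D4:**
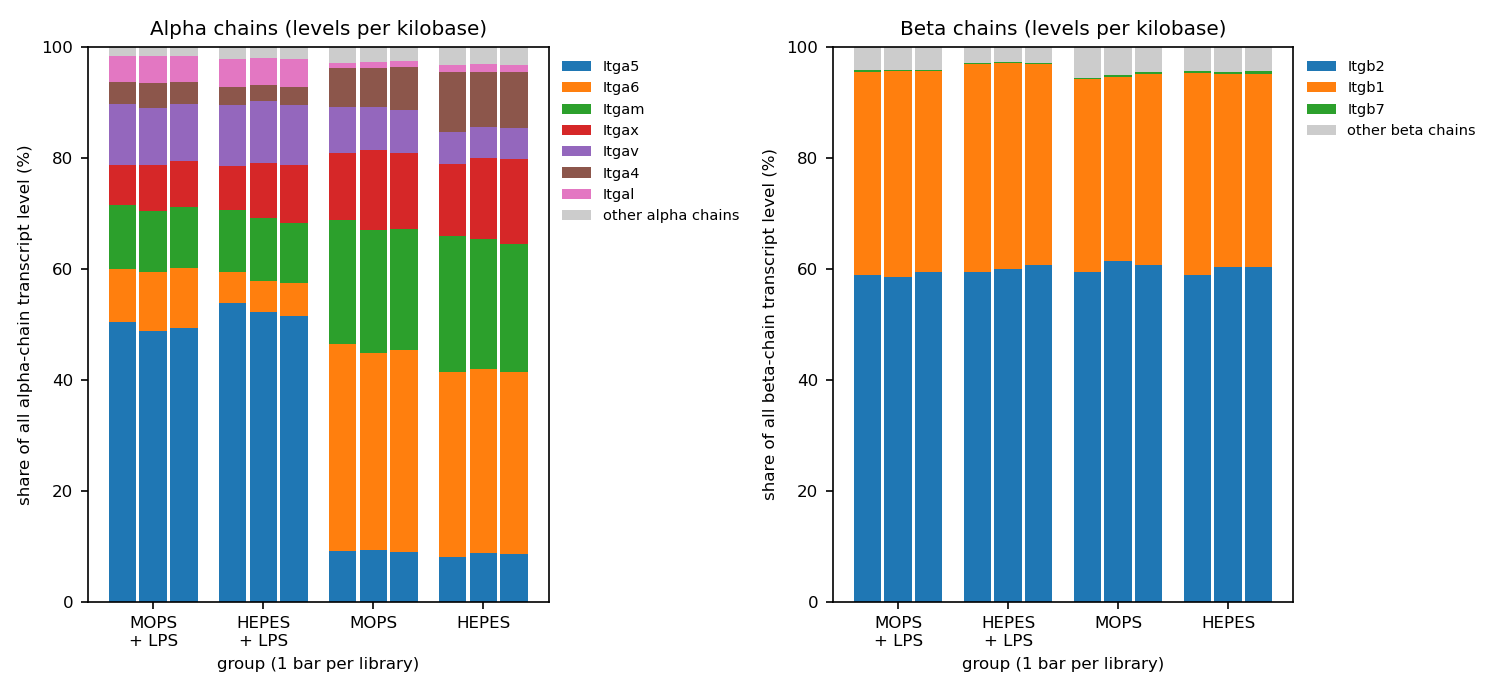
Share (y axis, %) of each alpha chain gene (left panel) and beta chain gene (right panel) in the summed level per kilobase of its chain type, 1 bar per library, by group on the x axis. Itga5 takes 48.9% to 53.9% of the alpha chain level in LPS libraries and 8.09% to 9.25% in untreated ones, while the Itgb2 share stays between 58.6% and 61.5% in all 12 libraries.

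Of 17 further integrin subunit genes, 10 had enough counts to be tested, and Itgb5 had the highest level per kilobase among them in each group. Itgb5, a partner of alphav, averaged 139 ± 2.80 CPM in MOPS with LPS, 88.2 ± 5.67 in HEPES with LPS, 125 ± 13.1 in MOPS and 112 ± 1.73 in HEPES. Its LPS change was 0.16 ± 0.056 in MOPS (edgeR adjusted p = 0.0163) and -0.35 ± 0.058 in HEPES (adjusted p = 1.08e-05), with a difference of 0.51 ± 0.081 (adjusted p = 2.51e-05); the MOPS change was -0.35 with total counts, and its call was lost without MOPS library 3 (0.08, adjusted p = 0.161) and without MOPS with LPS library 7 (adjusted p = 0.0684). Itga9, whose chain pairs with beta1 and binds tenascin, was higher with LPS by 0.54 ± 0.055 in MOPS (adjusted p = 3.76e-10) and 0.64 ± 0.052 in HEPES (adjusted p = 1.13e-12), calls lost in both media with total counts (0.02 and 0.06). It was lower in MOPS than in HEPES by -0.53 ± 0.053 with LPS (adjusted p = 6.08e-10) and -0.42 ± 0.053 without LPS (adjusted p = 8.81e-08). Itgb3, the beta chain of the classical vitronectin receptor, averaged 2.02 ± 0.365 CPM in MOPS with LPS, 4.99 ± 0.725 in HEPES with LPS, 3.78 ± 0.475 in MOPS and 13.9 ± 0.803 in HEPES. It was lower in MOPS by -1.31 ± 0.17 with LPS (adjusted p = 9.22e-08) and by -1.88 ± 0.12 without LPS (adjusted p = 4.26e-14), and lower with LPS by -0.90 ± 0.17 in MOPS (adjusted p = 2.30e-05) and by -1.47 ± 0.12 in HEPES (adjusted p = 3.57e-12). Itgb8, which activates latent TGF-beta with alphav, was scarce but higher with LPS, at 6.28 ± 0.660 CPM in MOPS with LPS, 4.53 ± 0.975 in HEPES with LPS, 1.52 ± 0.252 in MOPS and 0.882 ± 0.182 in HEPES (2.06 ± 0.19 and 2.35 ± 0.21 on the log2 scale, adjusted p of 3.98e-11 in MOPS and 2.14e-11 in HEPES). Itga1, Itga2b, Itga3, Itga7, Itga10 and Itgb4 averaged between 0.129 and 1.32 CPM, and Itga1 overlaps a gene with more counts than its own. Itga2, Itga8, Itga11, Itgad, Itgae, Itgb2l and Itgb6 had too few counts to be tested.

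Ligands of these receptors were followed as a list of 25 genes, of which 15 were tested. With LPS, 10 were higher and 3 lower in MOPS, where 69% of all genes were called, and 9 higher and 3 lower in HEPES, where 76.9% were called. The list's median log2 change was 0.49 in MOPS and 0.67 in HEPES, against -0.03 and -0.08 over all genes. With total counts the split was 6 and 5 in MOPS and 7 and 5 in HEPES. Icam1, the ligand of alphaL beta2 and alphaM beta2, averaged 940.3 ± 36.4 CPM in MOPS with LPS, 1412 ± 32.1 in HEPES with LPS, 39.9 ± 3.78 in MOPS and 50.5 ± 4.14 in HEPES (LPS change 4.56 ± 0.062 in MOPS, edgeR adjusted p = 1.42e-24, and 4.80 ± 0.062 in HEPES, adjusted p = 2.95e-25). Vcam1, the ligand of alpha4 beta1, averaged 14.5 ± 1.73 CPM in MOPS with LPS, 51.2 ± 5.18 in HEPES with LPS, 0.390 ± 0.196 in MOPS and 0.562 ± 0.0883 in HEPES. It was lower in MOPS by -1.82 ± 0.097 with LPS (adjusted p = 1.20e-15). Fn1, fibronectin and the ligand of alpha5 beta1, averaged 11849 ± 904 CPM in MOPS with LPS, 14645 ± 601 in HEPES with LPS, 4596 ± 94.1 in MOPS and 3391 ± 144 in HEPES, and its LPS change was smaller in MOPS by -0.74 ± 0.063 (adjusted p = 2.12e-10). Between the media, 2 ligands were higher and 10 lower in LPS-treated MOPS cells, and 3 higher and 6 lower without LPS, where 53.8% of all genes were called with LPS and 49.7% without. Spp1, osteopontin, was lower in MOPS by -0.69 ± 0.14 with LPS (adjusted p = 0.00282) and by -0.96 ± 0.14 without LPS (adjusted p = 3.59e-04).

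Genes that switch integrins on from inside the cell went in both directions. Of 13 inside-out activation genes tested, 8 were higher and 3 lower with LPS in MOPS and 5 higher and 5 lower in HEPES, or 3 and 8 in both media with total counts. The shares of the whole table were those given for the inhibitors below. The list's median log2 change was 0.12 in MOPS and -0.04 in HEPES, against -0.03 and -0.08 over all genes. Rap1b, the small GTPase, averaged 746 ± 20.5 CPM in MOPS with LPS, 1205 ± 20.6 in HEPES with LPS, 384 ± 6.84 in MOPS and 439.9 ± 6.58 in HEPES, with a smaller LPS change in MOPS (0.96 ± 0.035, against 1.46 ± 0.036 in HEPES, and a difference of -0.50 ± 0.050, edgeR adjusted p = 2.12e-09). Apbb1ip, which encodes the Rap1 effector RIAM, rose by 1.47 ± 0.037 in MOPS (adjusted p = 2.03e-25) and by 1.70 ± 0.037 in HEPES (adjusted p = 2.82e-27). Tln1, talin, was lower in MOPS by -0.50 ± 0.039 with LPS (adjusted p = 2.75e-12) and by -0.53 ± 0.039 without LPS (adjusted p = 6.48e-13). Fermt3, the kindlin of blood cells, averaged 368 ± 6.93 CPM in MOPS with LPS, 221 ± 5.85 in HEPES with LPS, 344 ± 3.65 in MOPS and 329 ± 3.05 in HEPES. It was higher in MOPS by 0.73 ± 0.036 with LPS (adjusted p = 3.36e-17) and not called without LPS (0.07 ± 0.035, adjusted p = 0.110). Between the media, 4 of the 13 were higher and 7 lower in LPS-treated MOPS cells, and 1 higher and 8 lower without LPS, or 5 and 5 and 2 and 8 with total counts. Over all genes 53.8% were called with LPS and 49.7% without. With total counts, 62.4% of the calls over all genes were higher in MOPS with LPS and 52.4% without.

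Genes that hold integrins back are inhibitors of the tail and of Rap1. With LPS, of 9 tested, 2 were higher and 5 lower in MOPS, where 34.1% of all genes were higher and 34.9% lower, and 1 was higher and 6 lower in HEPES, where 35.6% were higher and 41.2% lower. The list's median log2 change was -0.26 in MOPS and -0.76 in HEPES, against -0.03 and -0.08 over all genes. With total counts the split was 0 and 8 in MOPS and 1 and 8 in HEPES. Rasa3, a GTPase-activating protein for Ras and Rap1, averaged 102 ± 9.60 CPM in MOPS with LPS, 33.6 ± 1.98 in HEPES with LPS, 263 ± 4.90 in MOPS and 322 ± 1.90 in HEPES. Its LPS change was -1.36 ± 0.049 in MOPS (edgeR adjusted p = 8.86e-21) and -3.26 ± 0.055 in HEPES (adjusted p = 2.93e-29), a difference of 1.90 ± 0.073 (adjusted p = 9.96e-18). Dok1, an adaptor that competes with talin for beta-chain tails, changed by -1.09 ± 0.052 in MOPS (adjusted p = 4.46e-18) and -1.83 ± 0.059 in HEPES (adjusted p = 5.77e-23). Sipa1, another Rap1 GTPase-activating protein, changed by -0.26 ± 0.053 in MOPS (adjusted p = 9.97e-05) and -0.92 ± 0.057 in HEPES (adjusted p = 2.32e-15). The LPS change differed between media for 6 of the 9, each time less negative or more positive in MOPS, where 21.9% of all genes had such a difference. Between the media, 5 of the 9 were higher and 2 lower in LPS-treated MOPS cells, and 4 higher and 5 lower without LPS, where 26.9% of all genes went each way with LPS, and 24.3% were higher and 25.4% lower without LPS. With total counts these splits were 6 and 1, and 4 and 4, where 62.4% and 52.4% of the calls over all genes were higher.

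Of 26 adhesion complex and signalling genes tested, 21 were higher and 3 lower with LPS in MOPS and 18 higher and 6 lower in HEPES, or 11 and 12 in MOPS and 11 and 11 in HEPES with total counts. Over all genes 69% were called in MOPS and 76.9% in HEPES. The list's median log2 change was 0.46 in MOPS and 0.57 in HEPES, against -0.03 and -0.08 over all genes. Src, the kinase, averaged 41.0 ± 6.76 CPM in MOPS with LPS, 93.6 ± 1.71 in HEPES with LPS, 3.45 ± 0.398 in MOPS and 6.73 ± 0.286 in HEPES. It rose by 3.56 ± 0.11 on the log2 scale in MOPS (edgeR adjusted p = 2.72e-18) and by 3.80 ± 0.091 in HEPES (adjusted p = 1.36e-20). Syk, the kinase downstream of beta2 integrins, rose by 1.04 ± 0.036 in MOPS (adjusted p = 9.44e-22) and by 1.44 ± 0.037 in HEPES (adjusted p = 1.26e-25), and Pxn, paxillin, by 1.23 ± 0.039 (adjusted p = 5.31e-23) and 1.39 ± 0.039 (adjusted p = 1.52e-24). Actn1, alpha-actinin, was lower in MOPS by -1.52 ± 0.065 with LPS (adjusted p = 8.50e-14). Vcl, vinculin, had an LPS change of 0.82 ± 0.055 in MOPS (adjusted p = 1.97e-14) and -0.12 ± 0.055 in HEPES (adjusted p = 0.0549), and Tns1, tensin, changed by -1.15 ± 0.078 in MOPS (adjusted p = 2.28e-09) and -2.72 ± 0.085 in HEPES (adjusted p = 5.72e-14). Of 10 membrane partners, 8 were higher and 1 lower with LPS in MOPS and 7 higher and 2 lower in HEPES, or 3 and 5 in MOPS and 3 and 6 in HEPES with total counts, and their median log2 change was 0.35 in MOPS and 0.26 in HEPES. The shares over all genes are those just given. Plaur, the urokinase receptor that associates with integrins, averaged 1051 ± 68.0 CPM in MOPS with LPS, 2192 ± 47.8 in HEPES with LPS, 213 ± 11.8 in MOPS and 314 ± 22.1 in HEPES. Cd81, a tetraspanin, was higher in MOPS by 1.03 ± 0.044 with LPS (adjusted p = 1.37e-18) and by 0.52 ± 0.042 without LPS (adjusted p = 9.02e-12).

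**Figure D5:**
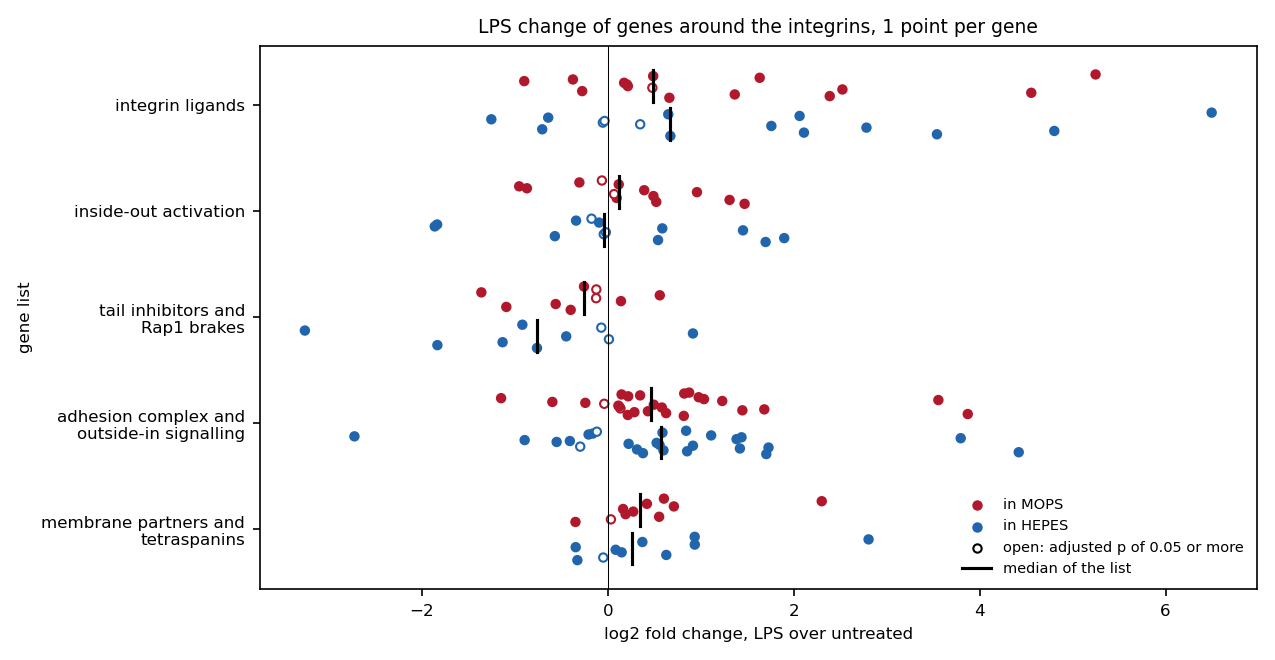
Log2 fold change of LPS over untreated cells (x axis) for the tested genes of 5 lists around the integrins (y axis), 1 point per gene, in MOPS (red) and HEPES (blue); vertical bars mark list medians and open points had an adjusted p of 0.05 or more. The medians of the inhibitor list are -0.26 in MOPS and -0.76 in HEPES, and those of the ligand list are 0.49 and 0.67.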

How the data were processed

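RNA-seq libraries were made from total RNA with the NEBNext Ultra kit, per the labels' protocols. The submitters' processing notes name CASAVA 1.8, HISAT2 2.0.5, featureCounts 1.5.0-p3 and build mm10; the sources used here name neither strand setting nor annotation release. In the deposited table are raw counts per gene and library and FPKM made by the authors, per the file headers, with gene length in bases; each FPKM equalled count over length over a size factor of the library. The authors' own comparison columns were not used.

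Counts were tested in R 4.3.3 with edgeR 4.0.16: filterByExpr, TMM factors (0.842 to 0.863 in MOPS with LPS, 0.800 to 0.801 in HEPES with LPS, 1.22 in MOPS, 1.19 to 1.21 in HEPES), a means model of 4 groups, robust quasi-likelihood dispersion with 8 residual degrees of freedom, and Benjamini-Hochberg adjustment over 14506 genes. The steps were tested on simulated data. The standard error of a log2 change is its size over the square root of F. The common biological coefficient of variation was 4.62%. None of the 12 pairs of libraries within groups was identical, and their chi-square per degree of freedom was 2.66 to 6.54. Alternatives were other size factors, total counts, no low-count filter, DESeq2 1.42.0, fewer groups in the fit, a 2-fold minimum, FPKM for levels and leaving out each library; levels from deposited FPKM were 0.976 to 0.997 of those given, within 1 SD in 36 of 40 cases.

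The integrin genes and lists were chosen with earlier results of these data known. Named are all 10 integrin genes, all tested integrin subunits, and genes among the up to 4 with the smallest p per pathway list and comparison; some that this rule names are given only in counts. Marker sums were 18.5 to 34.6 CPM for granulocytes and mast cells and 6.43 to 9.92 CPM for mesothelial, stromal and endothelial cells. The granulocyte and mast cell sums were above the Itgb7 level in each group, and the part of these cells in Itgb7 was not tested.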

Additional observations from a re-analysis of the deposited data

Results flagged for a closer look

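The LPS change differed between the media, by edgeR's interaction test, for 7 of the 10 integrin genes. Over all genes 39.4% passed that test (21.9% higher and 17.6% lower). As log2 change in MOPS minus log2 change in HEPES, the values were 0.97 for Itga4 (adjusted p = 3.85e-12), 0.74 for Itga6 (3.85e-12), 0.71 for Itgb7 (0.00310), 0.33 for Itgal (0.00261) and 0.20 for Itgb1 (0.00137). They were -0.55 for Itgav (adjusted p = 1.19e-08) and -0.17 for Itga5 (0.0195). The Itga5 call was lost with total counts (0.154) and without HEPES library 4 (0.0678). Groups of 3 libraries are too small to screen for a single library far from the others.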

How the results depend on the processing

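No paired analysis was run: the 12 libraries carry 12 different replicate numbers, and the labels do not say whether libraries of different groups belong together. The 5 member counts kept within 1.5 times under other size factors, total counts, no low-count filter and DESeq2, as did 4 of them in fits of only the groups compared, which the interaction does not have. These counts take both directions together. With total counts the members were 3 higher and 4 lower for LPS in MOPS, instead of 8 and 1. They were 3 and 6 for LPS in HEPES instead of 7 and 3, and 5 and 0 for the media with LPS instead of 3 and 4. A 2-fold minimum left 0 members for the media without LPS, 0 with LPS, 3 for LPS in MOPS, 4 for LPS in HEPES and 0 for the interaction. Over all genes 8.11%, 10.5%, 22.5%, 33.6% and 5.6% passed it in that order. Leaving out 1 library at a time gave 5 to 7 members for the media without LPS, 4 to 7 with LPS, 9 to 9 for LPS in MOPS, 9 to 10 for LPS in HEPES and 6 to 8 for the interaction; the 4 came without MOPS with LPS library 9. Of the single-gene values of members under all alternatives, 776 kept direction and call, 36 lost the call, 9 gained it and 19 changed sign. Total counts alone, which shift all genes, turned LPS in MOPS to -0.29 for Itgam, -0.068 for Itgax, -0.095 for Itga4 and -0.10 for Itgb2, and also to -0.075 for Itga1 and -0.35 for Itgb5. They turned LPS in HEPES to -0.48 for Itgam, -0.23 for Itgb1, -0.29 for Itgb2 and -0.58 for Itga2b, and the media with LPS to 0.032 for Itgam. Without the filter Itga2b was -0.058 for LPS in HEPES, and Itga7 there was 0.00041 with other size factors and 0.0011 with only the groups compared. The other sign changes came from left-out libraries, in values that were not called. Their ranges among members were -0.0075 to 0.065 for Itga5 between media without LPS, -0.033 to 0.030 for Itgb1 and -0.065 to 0.015 for Itgb2 between media with LPS, and -0.18 to 0.065 for Itgb7 with LPS in MOPS. Among scarcer subunits, Itga1 spanned -0.89 to 0.12 in the interaction and Itga3 -0.072 to 0.47 between media with LPS. Itga10 spanned -0.68 to 0.033 for LPS in MOPS and -0.043 to 0.74 in the interaction, and Itgb4 -2.69 to 0.0098 and -1.78 to 0.92. Itga2b spanned -0.37 to 0.011 for LPS in MOPS, -0.34 to 0.40 for LPS in HEPES and -0.59 to 0.15 in the interaction, and Itga7 -0.44 to 0.059, -0.42 to 0.40 and -0.58 to 0.24. The cause of each change was not tested. Depth limits Itgb7, with 87 to 260 counts per library, and the subunits under 1.32 CPM.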

Other observations

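The protein-coding genes whose log2 CPM followed the shared beta chains most closely over the 12 libraries were named by Pearson r, as a description. For Itgb1 they were Tgfb2, which encodes TGF-beta 2 (r = 0.994), Nupr1, a stress-induced nuclear protein (0.991), and Cd24a, a surface glycoprotein (0.990). Tgfb2 averaged 222 CPM in MOPS with LPS, 226 in HEPES with LPS, 61.1 in MOPS and 85.6 in HEPES. For Itgb2 they were Fam20c, a secretory-pathway kinase (r = 0.982), Ipo13, an importin (0.980), and Hexim1, an inhibitor of the transcription elongation factor P-TEFb (0.979). Fam20c averaged 1502 CPM in MOPS with LPS, 1498 in HEPES with LPS, 447 in MOPS and 599 in HEPES. Such closeness was common: of 12139 genes, 1343 had an r above 0.9 with Itgb1 and 1307 with Itgb2, and all libraries share the step between LPS and untreated cells.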
